A study of Mus musculus with 6 samples.

Results

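Ifit1, Ifit2, Ifit3, Rsad2 and Cmpk2 are 5 antiviral genes of the interferon response, and they were 5 of the 10698 genes that the probe annotation of the array named singly. Their probes were taken by annotated gene symbol, which gave 8 probes of 16281. The genes had been chosen by their high ratios of treated over untreated RNA on these same arrays, so those ratios are given as a description, with no test. The macrophage line RAW 264.7 (RAW 264.4 in part of the labels), derived from a virus-induced mouse tumour, was sampled after 4 h with lipopolysaccharide (LPS, 100 ng/ml) plus LPS-binding protein (LBP, 100 pM), or after 4 h untreated. LPS is a bacterial endotoxin, and LBP is a serum protein that carries it to CD14 and TLR4 on the cell surface. Treated and untreated total RNA shared each of 6 arrays, with treated RNA in Cy5 and untreated RNA in Cy3 on 3 arrays, and treated RNA in Cy3 and untreated RNA in Cy5 on 3 arrays. The sets are numbered 1 to 3 in each dye orientation. Whether each set is its own culture is not stated, so every p-value below reflects the scatter of these 3 sets alone, and that scatter may be technical.

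Interferon-stimulated genes are switched on when type I interferon binds its receptor and a transcription factor complex that contains IRF9 binds DNA. In macrophages, LPS signalling through TLR4 and TRIF activates IRF3, which drives the interferon beta gene and can also drive some of these genes directly. Ifit1 to Ifit3 encode proteins built of tetratricopeptide repeats that bind foreign RNA or translation factors. Rsad2 encodes viperin, a radical SAM enzyme that converts CTP into a chain terminator of viral RNA synthesis. Its chromosomal neighbour Cmpk2 encodes a mitochondrial nucleoside monophosphate kinase.

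Promoter windows of the genes are shown first because the sites bound by interferon-activated factors have a known core, a pair of GAAA repeats set 2 bases apart. The sequences come from RefSeq (GRCm38.p6) and run, on the gene's own strand, from 250 bases before to 50 bases after an annotated start. All 5 genes matched, Ifit2 with 2 starts, which made 6 windows. Capitals mark the GAAA pair, searched on both strands and read here on the opposite one as TTTC pairs. The 3 windows that hold it are followed by that of Cmpk2, which does not.
Ifit1, chr19:34640639-34640938, plus strand: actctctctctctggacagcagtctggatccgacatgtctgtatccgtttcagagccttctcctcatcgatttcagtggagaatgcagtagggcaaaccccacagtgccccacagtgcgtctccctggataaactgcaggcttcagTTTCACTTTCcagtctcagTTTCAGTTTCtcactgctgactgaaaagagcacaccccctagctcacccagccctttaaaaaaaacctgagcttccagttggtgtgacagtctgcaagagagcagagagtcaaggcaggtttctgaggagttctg
Ifit3, chr19:34583279-34583578, plus strand: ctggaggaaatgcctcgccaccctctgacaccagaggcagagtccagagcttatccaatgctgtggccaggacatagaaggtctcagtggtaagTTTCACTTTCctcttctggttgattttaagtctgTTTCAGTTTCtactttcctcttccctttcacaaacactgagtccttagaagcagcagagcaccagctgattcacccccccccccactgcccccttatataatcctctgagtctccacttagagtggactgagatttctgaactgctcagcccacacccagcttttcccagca
Rsad2, chr12:26456403-26456702, minus strand: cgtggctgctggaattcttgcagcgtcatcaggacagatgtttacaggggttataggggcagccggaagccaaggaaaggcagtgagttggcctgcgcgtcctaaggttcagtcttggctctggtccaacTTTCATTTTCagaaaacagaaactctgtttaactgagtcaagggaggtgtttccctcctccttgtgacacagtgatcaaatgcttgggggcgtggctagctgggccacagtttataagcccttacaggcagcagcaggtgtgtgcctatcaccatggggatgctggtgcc
Cmpk2, chr12:26468965-26469264, plus strand: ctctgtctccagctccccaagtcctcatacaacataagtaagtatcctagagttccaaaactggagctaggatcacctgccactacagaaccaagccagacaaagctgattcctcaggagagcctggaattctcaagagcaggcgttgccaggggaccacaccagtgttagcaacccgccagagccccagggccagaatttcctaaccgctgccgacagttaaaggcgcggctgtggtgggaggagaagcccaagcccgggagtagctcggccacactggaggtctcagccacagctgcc

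The Ifit1 and Ifit3 windows carried the same pair of 10-base matches in the same order, TTTCACTTTC and then TTTCAGTTTC. They lay at -104 to -95 and -85 to -76 from the start of Ifit1, and at -156 to -147 and -122 to -113 from that of Ifit3. The single match in Rsad2, TTTCATTTTC, lay at -120 to -111. Neither Ifit2 window held the letters. Of 32851 mouse promoter windows of the same length, 1131 (3.44%) held the GAAA pair at least once and 74 (0.225%) at 2 or more places. With 1 mismatch allowed, 4 of the 6 windows had a match, but so did 35.4% of all windows. A core of the NF-kappaB site, GGG followed after any 5 bases by CC on either strand, was in 4 of the 6 windows (Ifit1, the first of Ifit2, Rsad2 and Cmpk2), against 50.8% of all windows. A match is a run of letters, not a measured binding site, and these arrays measured no binding.

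**Figure D1:**
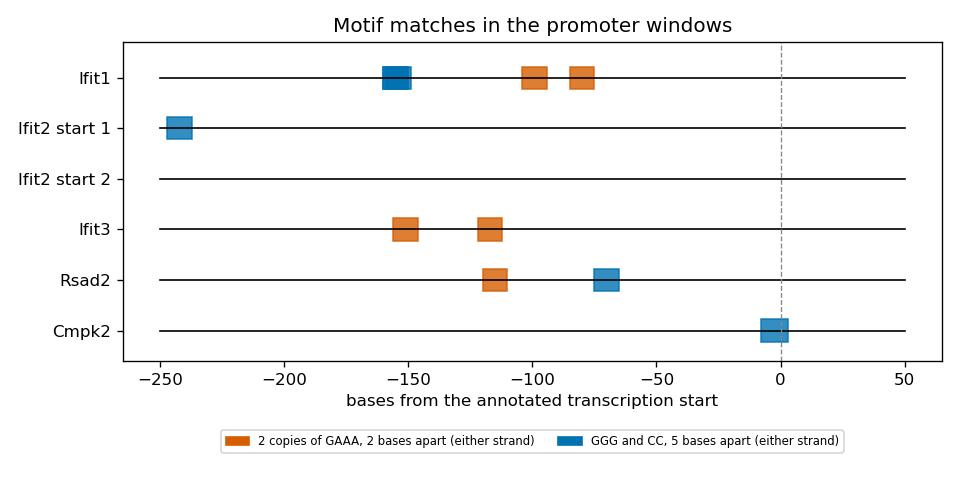
Motif matches in the 6 promoter windows, 1 row each, by distance in bases from the annotated start (the dashed line). Orange boxes are GAAA pairs, 2 each in Ifit1 and Ifit3 and 1 in Rsad2, and blue boxes are the GGG and CC core.

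The windows were otherwise no close copies of each other. Ifit1 and Ifit3 had 168 identical bases in alignment (50.5% of it), while Ifit3 and Ifit3b, a relative beside it with no probe annotated here, had 258 (75.9%). The Ifit1 window overlapped that of Ifit1bl2 on the opposite strand by 245 bases. The gene table lists 3 such relatives in the cluster (Ifit1bl1, Ifit1bl2 and Ifit3b), none with a probe of its own in the annotation, and RNA of a near-identical relative that bound an Ifit probe would be read as that Ifit gene. The windows of Rsad2 and Cmpk2 faced away from each other on opposite strands, 12.3 kb apart.

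Each array gave 14195 to 15027 probes with a value other than exactly 0, which was read as not measured. The ratio was taken as Cy5 over Cy3, since the labels call Cy5 the test channel, and its sign was turned on the arrays with treated RNA in Cy3. Arrays of opposite orientation correlated at -0.760 to -0.374 before this turn, across probes. That the table divides in this direction is an assumption, and the other convention would reverse every sign below. The table holds ratios and no levels, so neither the macrophage identity of the cells nor the abundance of any member could be checked. For the same reason a larger share of responding cells and more RNA per cell cannot be told apart. Of 8 tested macrophage markers 4 were higher, 1 was lower and 3 were not called (-0.30 to 1.14, log2), and of 17 tested markers of other cell types 1 (Cd4) was higher and 16 were not called (-0.059 to 0.23). Over all features tested, 14.0% were called higher and 15.0% lower (limma, adjusted p below 0.05). The Cd4 call was lost, with 0 of the 17 called higher, without set 1, without set 3 or in either orientation alone. With exact zeros kept 0 were called higher as well, while without set 2 the count was 2.

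All 5 genes were higher in treated than in untreated RNA, by 12.6-fold to 20.5-fold as the mean of the 3 sets. The 7 probes measured on all arrays were positive on all 6. Across all 11364 features tested, 14.0% were higher and 15.0% lower in treated RNA at an adjusted p below 0.05 (limma), with a median log2 ratio of 0.00079. Nothing is read from that comparison for the members, since the contrast chose them.

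Ifit1 encodes a protein that binds viral RNA lacking the host's cap methylation and blocks its translation. Its probe from GenBank entry U43084 had log2 ratios of treated over untreated RNA of 4.43, 4.68 and 4.36 in sets 1 to 3 with treated RNA in Cy5, and of 3.39, 3.50 and 3.64 with treated RNA in Cy3. All 3 arrays with treated RNA in Cy5 lay above all 3 with treated RNA in Cy3, with no overlap. The set means averaged 4.00 ± 0.091 (SD, n = 3), a 16.0-fold ratio, made of 22.5-fold in the Cy5 orientation and 11.4-fold in the Cy3 orientation.

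The second Ifit1 probe, NM_008331, did not follow the first. It read -1.01, -0.72 and 0.24 in sets 1 to 3 with treated RNA in Cy5, and 2.40 in set 1 with treated RNA in Cy3. It was exactly 0 on the other 2 arrays, and with 4 measured arrays it entered no set mean. The lone array in the Cy3 orientation was the highest, and the 3 others had both signs. With exact zeros kept as values, which brings this probe into the gene mean, Ifit1 was the lowest member, at 2.07. The Ifit1 values therefore rest on 1 probe, and the table gives no intensity by which to judge the second.

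Ifit2 encodes a protein that binds AU-rich RNA and the translation factor eIF3. Probe U43085 read 4.76, 5.09 and 4.56 in the arrays with treated RNA in Cy5, and 3.69, 3.88 and 3.92 in those with treated RNA in Cy3, in set order. Again the orientations did not overlap. Probe NM_008332 of the same gene read 4.02, 3.16 and 4.07 with treated RNA in Cy5, and 3.69, 3.56 and 3.78 with treated RNA in Cy3. Here the orientations overlapped, and the lowest of the 6 values was that of set 2 in the Cy5 orientation, where U43085 was highest. Set means averaged 4.32 ± 0.15 for U43085 and 3.71 ± 0.31 for NM_008332 (SD, n = 3), or 19.9-fold and 13.1-fold. The probes differed by 0.60 ± 0.45 within a set, from 0.31 to 1.13.

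Ifit3 encodes a partner of other Ifit proteins, and human IFIT3 is known to stabilise IFIT1. Probe L32974 had the highest ratios of all members, 5.24, 5.66 and 5.17 with treated RNA in Cy5, against 4.19, 4.51 and 4.45 with treated RNA in Cy3. It ranked between the 2nd and the 5th highest of all probes on each of the 6 arrays. Probe NM_010501 read 2.97, 2.46 and 3.31 with treated RNA in Cy5, and 2.86, 3.22 and 3.05 with treated RNA in Cy3, with overlapping orientations and a rank between 40 and 77. The means were 4.87 ± 0.19 (29.2-fold) for L32974 and 2.98 ± 0.18 (7.88-fold) for NM_010501 (SD over 3 sets). The gap between these probes of 1 gene, 1.89 ± 0.32, was positive in all 3 sets (1.63 to 2.24) and exceeded every gap between member genes. Why the probes differ was not tested.

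Rsad2 was measured by probe AF236064. It read 4.91, 5.60 and 4.72 with treated RNA in Cy5, and 3.48, 3.68 and 3.74 with treated RNA in Cy3. The Cy5 values were all higher than the Cy3 values, and set 2 in Cy5 was the highest of the 6. The mean was 4.36 ± 0.25 (SD, n = 3), a 20.5-fold ratio, with 33.8-fold in the Cy5 orientation and 12.4-fold in the Cy3 orientation.

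Cmpk2 was measured by probe L32973. It read 4.18, 3.15 and 3.60 with treated RNA in Cy5, and 3.84, 3.54 and 3.63 with treated RNA in Cy3. The orientations overlapped, and set 2 in Cy5 was the lowest of the 6. The mean was 3.66 ± 0.34 (SD, n = 3), a 12.6-fold ratio, with 12.5-fold in the Cy5 orientation and 12.7-fold in the Cy3 orientation.

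**Figure D2:**
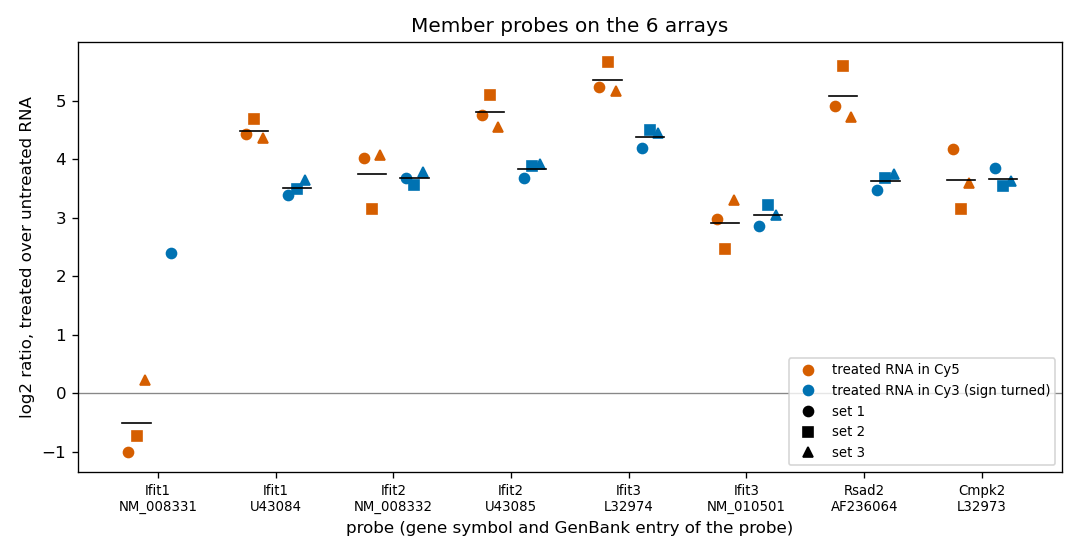
Log2 ratio of treated over untreated RNA (vertical axis) for each of the 8 member probes, 1 point per array and 1 symbol per set, treated in Cy5 in orange and treated in Cy3 in blue with the sign turned. Horizontal bars are orientation means where more than 1 array was measured. Ifit1 U43084, Ifit2 U43085, Ifit3 L32974 and Rsad2 show separate orange and blue points, and Ifit2 NM_008332, Ifit3 NM_010501 and Cmpk2 show overlapping ones.

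With the probes of a gene averaged, the order from high to low was Rsad2 at 4.36 ± 0.25, Ifit2 at 4.01 ± 0.081, Ifit1 at 4.00 ± 0.091, Ifit3 at 3.92 ± 0.094 and Cmpk2 at 3.66 ± 0.34 (log2, SD over 3 sets). Neighbours in this order differed by little more than their spread, or by less. Rsad2 minus Ifit2 was 0.34 ± 0.32, with 0.16, 0.72 and 0.15 in sets 1 to 3. Ifit2 minus Ifit1 was 0.015 ± 0.16, Ifit1 minus Ifit3 was 0.074 ± 0.061, and Ifit3 minus Cmpk2 was 0.27 ± 0.42, with a negative value in set 1. The order also depended on the orientation for Rsad2, which was the highest at 5.08 with treated RNA in Cy5. With treated RNA in Cy3 it was at 3.64, below Ifit2 at 3.75, Ifit3 at 3.71 and Cmpk2 at 3.67, and above Ifit1 at 3.51. By single probe the order was another, since the higher Ifit3 probe (4.87) lay above Rsad2 and the lower one (2.98) below Cmpk2. Averaging also gave smaller SDs than the single probes had, which were 0.15 and 0.31 for Ifit2 and 0.19 and 0.18 for Ifit3.

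A treatment effect that is equal in both orientations cancels in the difference between them. Across probes with high ratios this difference was not independent of the ratio that chose the members, since its median rose with that ratio (below). The difference was expressed as a dye effect. This is the log2 ratio of Cy5 over Cy3 averaged over both arrays of a set without the sign turn. The orientations of a probe therefore lie 2 dye effects apart. Read as Cy5 over Cy3, Rsad2 AF236064 had the highest positive dye effect of the 13415 probes measured on all arrays, 0.72 ± 0.24, with 0.71, 0.96 and 0.49 in sets 1 to 3, and its orientations were 1.44 apart. Ifit1 U43084 had 0.49 ± 0.12, Ifit2 U43085 0.48 ± 0.15 and Ifit3 L32974 0.49 ± 0.11. All 3 sets were positive for these 4 probes, and all probes together had 5th and 95th percentiles of -0.26 and 0.23, with negative values down to -2.43 among probes with a log2 treatment ratio between -1 and 1. Ifit2 NM_008332 at 0.036 ± 0.21, Ifit3 NM_010501 at -0.065 ± 0.27 and Cmpk2 L32973 at -0.015 ± 0.18 lay within their spread of 0.

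No member dye effect passed the test over all probes (limma, Benjamini-Hochberg). The adjusted p was 0.155 for each of the 4 probes with separate orientations, with unadjusted p of 0.00131 (Ifit3 L32974) to 0.00279 (Ifit2 U43085), and it was 0.745 to 0.918 for the 3 others. The background was equally low, since 0% of the 13415 probes were called with Cy5 above Cy3, 1 probe was called the other way and 3187 had an unadjusted p below 0.05. Of the gene features 0 of 11364 (0%) were called for a dye effect and 2630 had an unadjusted p below 0.05. The gene-level adjusted p was 0.166 to 0.170 for Ifit1, Ifit2, Ifit3 and Rsad2 and 0.919 for Cmpk2. With the 6 arrays fitted without regard to set number, 4.88% of features passed, among them Ifit1 (adjusted p = 0.0234), Ifit2 (0.0410) and Rsad2 (0.0330). That fit counts both arrays of a set as separate replicates, and with set number in the fit 0% passed. Since the dye effect rose with the ratio that chose the members, none of these p-values is an independent test of them.

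Other probes with high treatment ratios had positive dye effects too. The median dye effect was 0.427 over the 10 probes with a log2 ratio of 4 or more, 0.191 over the 35 between 3 and 4, 0.078 over the 57 between 2 and 3 and 0.00042 over the 192 between 1 and 2, members included. Of 39 probes outside the family with a ratio of at least 3, 37 had a positive dye effect, with a median of 0.223 and a range of -0.169 to 0.677. The member probes lay between -0.065 and 0.72, so Rsad2 alone was beyond the upper end of that range. The cause of the dye effect was not tested.

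**Figure D3:**
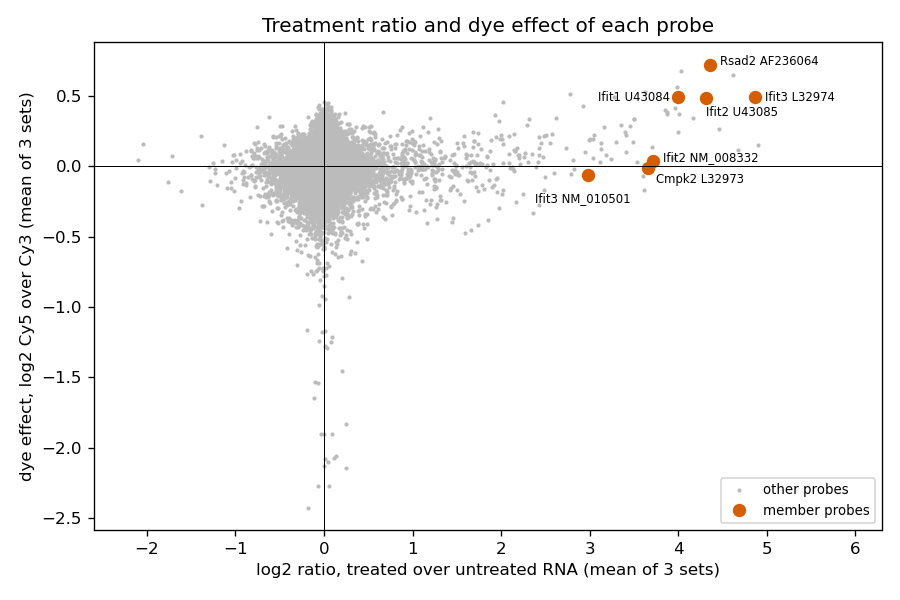
Dye effect (vertical axis, log2 of Cy5 over Cy3) against treatment ratio (horizontal axis, log2 of treated over untreated RNA) for 13415 probes, each the mean of 3 sets. Of the 7 member probes in orange, 4 lie between 0.48 and 0.72 and 3 lie near 0, and the Rsad2 probe is the highest point of the plot.

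The array of set 2 with treated RNA in Cy5 divided the member probes in the same way. Against the mean of sets 1 and 3 in that orientation, it was higher by 0.29 for Ifit1 U43084, 0.43 for Ifit2 U43085, 0.46 for Ifit3 L32974 and 0.79 for Rsad2. It was lower for Ifit2 NM_008332 (-0.89), Ifit3 NM_010501 (-0.68) and Cmpk2 (-0.74), so probes of 1 gene moved in opposite directions on this array. Of the 39 other probes with a ratio of at least 3, 22 were higher there, with a median dye effect of 0.281, and the rest were lower, with a median of 0.162. Across those probes the dye effect and the set 2 difference correlated with Pearson's r = 0.594, as a description of points that share the same 6 arrays and, in part, the same values.

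The Cy5 orientation was also the more variable one. Its SD over 3 arrays was larger than that of the Cy3 orientation in 7 of 7 member probes (median SD 0.425 against 0.135). The same held for 33 of the 39 other probes with high ratios (84.6%, medians 0.345 and 0.180) and for 57.3% of all 13415 probes (0.132 and 0.115). Without the set 2 array in the Cy5 orientation, Rsad2 averaged 4.04 and Ifit1 3.80.

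Genes that act before and beside the family were read from lists, chosen with earlier results of these arrays known, and tested over all features with limma. The counts below stand beside 14.0% higher and 15.0% lower over all features. In the chain from interferon receptor to DNA, 3 of 5 tested genes were higher, 1 was lower and 1 was not called, with a median log2 ratio of 0.16. Irf9, the DNA-binding subunit of the complex that activates interferon-stimulated genes, was higher by 0.97 ± 0.20 (SD, n = 3; adjusted p = 6.38e-05), and Tyk2, a receptor-bound kinase, by 0.74 ± 0.12. The receptor subunit Ifnar2 was slightly lower (-0.16 ± 0.059, adjusted p = 0.0310), a call lost without set 1 (0.134), without set 2 (0.149) and in either orientation alone (0.196 in Cy5, 0.295 in Cy3), and Ifnar1 was at -0.077 ± 0.058 (adjusted p = 0.261).

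Of 9 tested genes on the route from TLR4 to interferon beta, 6 were higher, 1 was lower and 2 were not called (median 0.44). Ifnb1, which encodes interferon beta, was higher by 3.94 ± 0.65 (15.3-fold, adjusted p = 9.49e-06), a ratio in the range of the member genes. Irf7, which amplifies interferon production, was higher by 1.99 ± 0.36, and Ikbke, a kinase of IRF3, by 1.06 ± 0.067. Cd14 was at 0.073 ± 0.071 (adjusted p = 0.305), and the 1 lower gene was Tlr4 (-0.55). Among inhibitors of interferon signalling, 4 of 6 were higher, 0 lower and 2 not called (median 0.23). Usp18, which blocks the receptor and removes ISG15 from proteins, led with 3.41 ± 0.41 (10.6-fold, adjusted p = 2.07e-06). Socs1, which inhibits Janus kinases, was higher by 1.25 ± 0.20 and the phosphatase gene Ptpn11 by 0.25 ± 0.095, while Pias1 was at -0.079 ± 0.035. The Ptpn11 call was lost with treated RNA in Cy5 alone (adjusted p = 0.348) and with exact zeros kept (0.0706).

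Sensors and effectors of the same response had larger ratios. All 4 tested RNA sensors were higher (median 2.21), with Ifih1, which detects long double-stranded RNA, at 3.13 ± 0.29 (adjusted p = 6.89e-07), its relative Dhx58 at 2.30 ± 0.29 and the endosomal receptor Tlr3 at 2.12 ± 0.39. Of 34 other interferon-stimulated effectors, 32 were higher, 0 lower and 2 not called, with a median of 1.95 and a range of -0.086 to 4.79. The highest were Ifi202b at 4.79 ± 0.11 (27.6-fold, adjusted p = 1.59e-08), which encodes a DNA-binding protein, the ubiquitin-like Isg15 at 3.85 ± 0.47 and Ifi204 at 3.60 ± 0.17. The lowest was Nt5c3, a pyrimidine nucleotidase gene, at -0.086 ± 0.054 (adjusted p = 0.204). The list was drawn from known responders, so its direction was set in part by the choice. On the gene scale, Ifi202b was above all 5 members and Isg15 lay between Ifit3 and Cmpk2.

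Genes that share an activity with the members, but are not known as interferon-stimulated, were listed too. The members were chosen for their high ratios and these genes were not, so lower ratios here follow in part from that choice. Of the 4 tested radical SAM enzymes, the enzyme class of viperin, 0 were called, from -0.085 ± 0.074 for Elp3 (adjusted p = 0.237) to 0.054. With treated RNA in Cy3 alone Elp3 was called lower (-0.29, adjusted p = 0.0276), but with treated RNA in Cy5 alone Elp3 was at 0.12. Of 13 nucleotide and nucleoside kinases, the activity of Cmpk2, 2 were higher, 5 lower and 6 not called (median -0.043). The cytosolic thymidine kinase Tk1 was lower (-1.12 ± 0.076, adjusted p = 3.22e-06), Ak3 was lower (-0.25 ± 0.083), the deoxycytidine kinase Dck was higher by 0.40 ± 0.087 (adjusted p = 7.19e-04), and Ak4 was at 0.13 ± 0.069. The Ak3 call was lost with treated RNA in Cy3 alone (adjusted p = 0.191) and with exact zeros kept (0.0548). It was also lost with set 2 taken only from its array with treated RNA in Cy3 (0.162). The Dck call was lost with treated RNA in Cy5 alone (0.0971). Cmpk1, the cytosolic counterpart of Cmpk2, was named after its value was seen and was at 0.073 ± 0.019. Cmpk2, chosen for its high ratio, was at 3.66 ± 0.34.

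Genes for the translation factors that Ifit proteins act on had small ratios. Of 8 eIF3 subunits 3 were higher, 0 lower and 5 not called (median 0.11). They were Eif3j1 (0.24 ± 0.11), Eif3d (0.15 ± 0.028) and Eif3e (0.14 ± 0.033), and Eif3c was at 0.11 ± 0.056. These calls were near the threshold, and 0 of the 8 were called higher without set 1 or in the Cy5 orientation alone. Of 8 genes for cap enzymes and cap-binding factors 3 were higher, 2 lower and 3 not called (median 0.077). Cmtr1, whose enzyme adds the cap methylation that keeps host RNA from Ifit1, was higher by 0.43 ± 0.15 (adjusted p = 0.00171) and the helicase gene Eif4a1 by 0.29 ± 0.13. Eif4e3 was lower (-0.45 ± 0.16) and the cap methyltransferase gene Rnmt was at 0.14 ± 0.039 (adjusted p = 0.0503). The calls of Cmtr1 (adjusted p = 0.0979) and Eif4e3 (0.0985) were lost with treated RNA in Cy3 alone. That of Eif4a1 was lost with treated RNA in Cy5 alone (0.0867). With exact zeros kept all of these calls were lost (0.0609 for Cmtr1, 0.0569 for Eif4e3 and 0.0966 for Eif4a1).

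**Figure D4:**
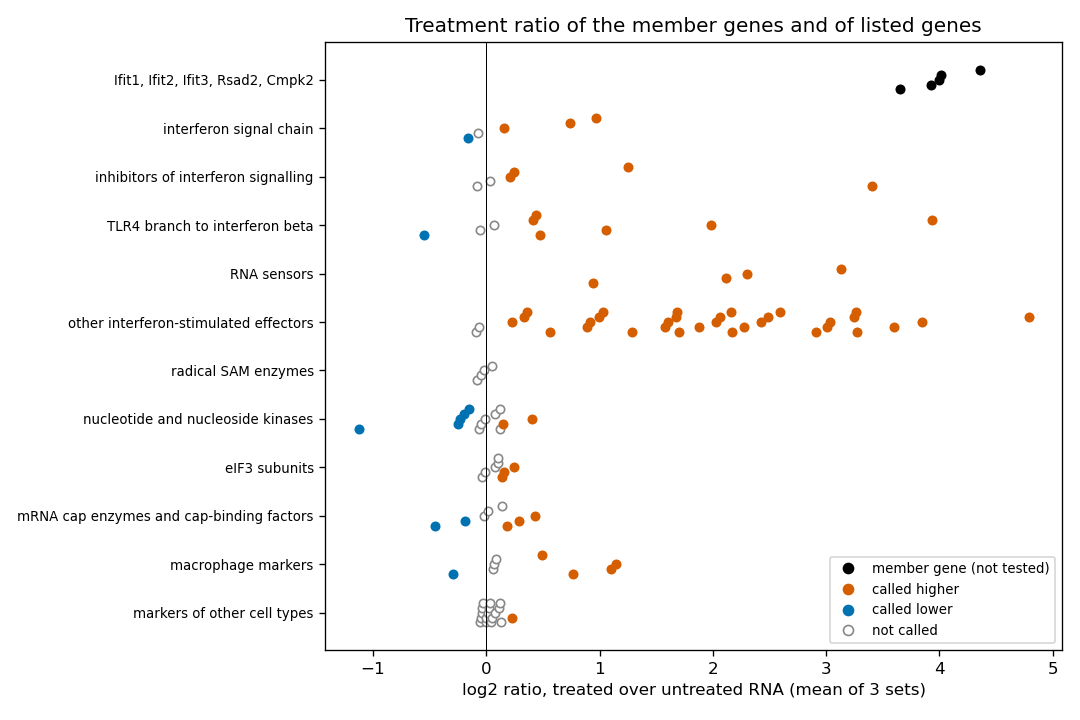
Log2 ratio of treated over untreated RNA (horizontal axis, mean of 3 sets) of the 5 member genes in the top row and of each tested gene of the listed groups below, 1 point per gene. Filled orange points were called higher and blue ones lower, and open points were not called. The members lie between 3.66 and 4.36, and the radical SAM enzymes, eIF3 subunits and markers of other cell types lie near 0.

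The members lie in 2 chromosomal groups, the Ifit cluster on chromosome 19 and the Rsad2 and Cmpk2 pair on chromosome 12. The 5 nearest measured genes on each side were compared by their order in the mouse gene table. Around the Ifit cluster 4 of 10 were higher, 2 lower and 4 not called, against 14.0% higher and 15.0% lower over all features. The death receptor gene Fas was higher by 3.20 ± 0.24 (9.22-fold, adjusted p = 3.13e-07), in the order of the members. The others were at most 0.75, with Pcgf5 at 0.75 ± 0.050, Stambpl1 at 0.39 ± 0.070 and Ch25h, whose enzyme makes an antiviral oxysterol, at 0.36 ± 0.039. Nearer to the cluster, Lipa, the lysosomal acid lipase gene, was lower (-0.27 ± 0.061, adjusted p = 0.00374), and so was Pank1 on the other side (-0.36 ± 0.18). The calls of Ch25h (adjusted p = 0.0889) and Lipa (0.0756) were lost with treated RNA in Cy5 alone. That of Pank1 was lost with treated RNA in Cy3 alone (0.0788), without set 3 (0.0518) and with exact zeros kept (0.100). Htr7 (0.018), Rpp30 (0.084), Ankrd1 (-0.049) and Acta2 were not called, and Acta2, at 0.094 ± 0.58, was positive on both arrays of set 1 and negative on 3 of the 4 others. Without set 2 it was called higher (0.33, adjusted p = 0.00154), and without set 1 it was -0.23 (adjusted p = 0.0508).

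Around Rsad2 and Cmpk2, 0 of 10 were higher, 3 lower and 7 not called, against the same 14.0% and 15.0%. Id2, which encodes an inhibitor of helix-loop-helix factors, was lower (-2.07 ± 0.18, adjusted p = 9.64e-07), and so were the ribonucleotide reductase gene Rrm2 (-0.76 ± 0.15, adjusted p = 8.42e-05) and Adi1 (-0.15 ± 0.062, adjusted p = 0.0414). The Adi1 call was lost without any one set (adjusted p = 0.0571 to 0.129) and in either orientation alone (0.714 in Cy5, 0.0529 in Cy3). Taf1b (-0.12), Mboat2 (-0.11), Rnaseh1 (-0.014), Dcdc2c (0.019), Rps7 (0.045), 9030624G23Rik (0.049) and Colec11 (0.099) were not called. The gene table lists 16 other genes between Id2 and the pair and 19 between the pair and Dcdc2c, so the nearest measured neighbours are not adjacent. Id2 lies 1346.7 kb from the pair and Dcdc2c 1958 kb, and the farthest, 9030624G23Rik, lies 2345.5 kb away. Between Lipa and the Ifit cluster the gene table lists 1, and between the cluster and Pank1 it lists 4. Lipa lies 23.1 kb from that cluster and Pank1 156.9 kb. Htr7, Rpp30, Ankrd1 and Pcgf5 lie 1308.4 to 1698.3 kb from it.

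**Figure D5:**
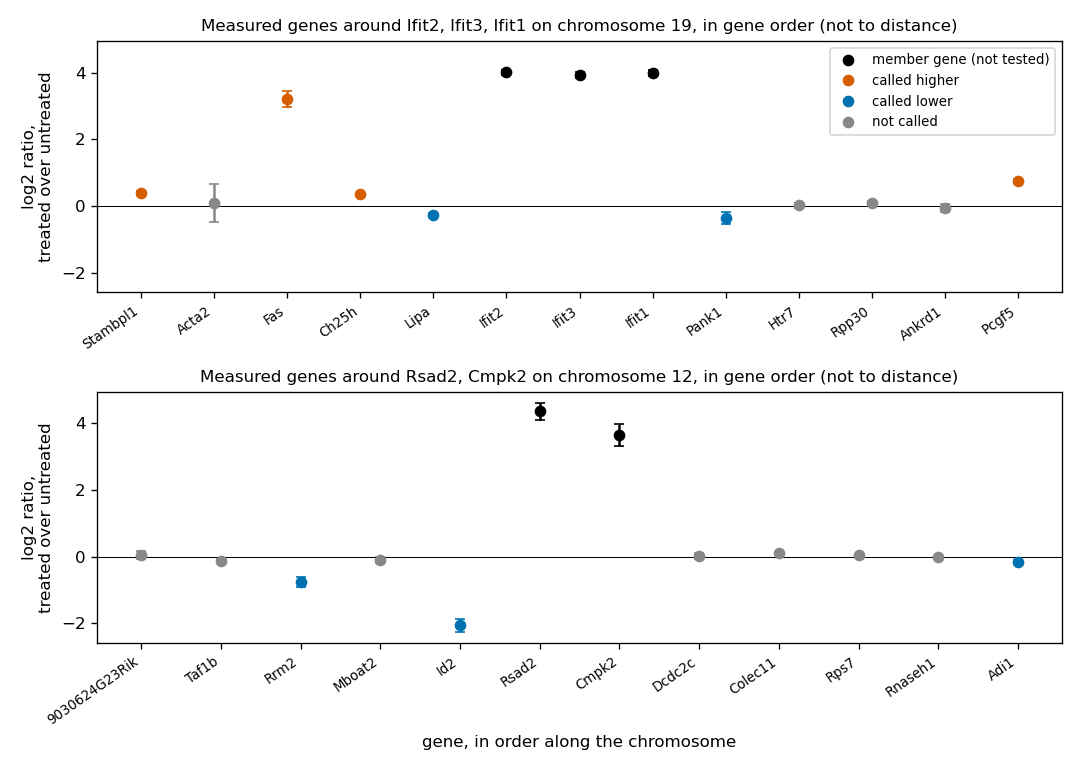
Log2 ratio of treated over untreated RNA (vertical axis, mean of 3 sets with SD) of the member genes in black and of the 5 nearest measured genes on each side, in chromosomal order and not to distance. Of the neighbours only Fas, at 3.20, comes near the members, and Id2, at -2.07, is the lowest.

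The genes outside the family whose 6 array values lay nearest to the member mean were ranked by the root mean square difference over the 6 arrays. The member mean was 4.40, 4.32 and 4.25 in sets 1 to 3 with treated RNA in Cy5, and 3.59, 3.66 and 3.72 with treated RNA in Cy3. The nearest were Saa3, an acute-phase protein gene (0.193), the chemokine gene Ccl2 (0.224), Gm9706 (0.271), the cytokine gene Il1b (0.303), the chemokine gene Cxcl10 (0.382) and Isg15 (0.446). Against the same mean, Ifit2 differed by 0.112, Ifit3 by 0.183 and Ifit1 by 0.189, but Cmpk2 by 0.569 and Rsad2 by 0.596, more than all 6 of these other genes. That mean contains the members themselves and uses the ratios that chose them, while the 6 other genes were picked for their nearness to it. Members and other genes are therefore not compared on equal terms, and the distances are a description. The same 6 genes were the nearest to Ifit1 alone, in another order that began with Il1b (0.227). The measure rests on ratio and dye pattern over 6 arrays at a single time, and genes with like ratios have little room to differ in it.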

How the data were processed

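Total RNA of treated and untreated cells was compared on 6 two-colour arrays, and the number of arrays limits the precision. The deposited table holds 1 log2 ratio per probe and array, as made by the authors, and the log base was read from the largest value, 6.64, the log2 of a ratio of 100. How background was corrected, how the ratios were normalized and any build are not given in the sources used here. Exact zeros were taken as not measured. Gene symbols came from the platform annotation, in which 13738 probes had 1 symbol, 52 several and 2491 none, and 13694 matched the mouse gene table by Entrez ID. Probes of a gene measured on all 6 arrays were averaged, which gave 11364 features.

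The values were kept as deposited by the authors. The mean of both arrays of a set, after turning the sign of the array with treated RNA in Cy3, was tested against 0 with limma 3.58.1 (lmFit, eBayes, two-sided, R 4.3.3) and Benjamini-Hochberg adjustment at 0.05 over all features. The unturned means gave the dye effect. Whether the pair of arrays in a set shared RNA is not stated. The test was checked on simulated set values, drawn independently for each feature and set, with no dye effect. The check therefore does not cover dye effects or deviations shared by features of an array. Promoters were searched with Python 3.11.15 and aligned with Biopython 1.88.

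The members and lists were chosen with earlier results of these data known. The genes named were all member probes, in each list the 3 called genes and the 1 uncalled gene of largest absolute change, the neighbours, and the 6 genes nearest in pattern. Tlr4, Cmpk1 and Cd4 were named after their values were seen. Alternatives were centring, scale and quantile normalization, each set left out, exact zeros kept, 6 arrays with and without a replicate block, robust variances, each orientation alone and single probes. Set 2 without its array in the Cy5 orientation was added after the data were seen. Protein sequences were not analysed here.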

Additional observations from a re-analysis of the deposited data

How the results depend on the processing

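The treatment ratio of every member gene stayed positive under all alternatives. With one set left out in turn, Ifit1 was 3.95 to 4.04, Ifit2 3.98 to 4.06, Ifit3 3.89 to 3.98, Rsad2 4.21 to 4.44 and Cmpk2 3.48 to 3.81. The arrays with treated RNA in Cy5 alone gave Ifit1 4.49, Ifit2 4.27, Ifit3 4.14 and Rsad2 5.08, with 931 features higher and 894 lower, 5 lower list genes and 3 lower neighbours. The arrays with treated RNA in Cy3 alone gave 3.51, 3.75, 3.71 and 3.64 for those genes, with 1079 features lower, 4 lower list genes (against 9) and 3 lower neighbours (against 5). Exact zeros kept as values gave Ifit1 2.07, 5 lower list genes and 3 lower neighbours. Set 2 from its treated-in-Cy3 array alone, chosen after seeing the data, gave Ifit1 3.80, Rsad2 4.04, 4 lower list genes, and 1042 features higher and 820 lower. Leaving out one set gave 3 to 4 lower neighbours, 6 to 8 lower list genes and 51 to 53 higher ones (against 57).

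The dye effect depended on the fit. Features called were 0 in the set means, 5 after quantile normalization, 0 to 6 without one set, 1 over single probes and 554 with 6 arrays and no replicate block, which called 3 members, namely Ifit1 (0.49), Ifit2 (0.26) and Rsad2 (0.72). With the replicate block over 6 arrays it was 0, and 1201 features were higher and 1237 lower. Ch25h (adjusted p = 0.0562), Adi1 (0.144), Ifnar2 (0.238) and Eif3e (0.0980) then missed the threshold, and 0 markers of other cell types were called higher, against 1 (Cd4). After the sign turn, deviations of same-numbered arrays from their orientation means correlated at -0.491, -0.523 and -0.033 in sets 1 to 3. Arrays of different numbers correlated at -0.138 to 0.53. In sets 1 and 2 the same-numbered arrays thus deviated alike in Cy5 over Cy3, not in treated over untreated RNA. Whether same-numbered arrays shared RNA was not shown by these values. The dye effect changed sign after quantile normalization for Ifit2 (-0.072) and Ifit3 (-0.039), without set 2 for Cmpk2 (0.076, with -0.11 to 0.076 over the sets left out) and with exact zeros kept for Ifit1 (-0.080). Without one set it was 0.44 to 0.56 for Ifit1, 0.22 to 0.29 for Ifit2, 0.17 to 0.27 for Ifit3 and 0.60 to 0.84 for Rsad2.

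Small treatment ratios of other genes changed sign. With one set left out, Acta2 was -0.23 to 0.33, Ankrd1 -0.10 to 0.014, Htr7 -0.0042 to 0.058 and Dcdc2c -0.033 to 0.060, the negative value of Acta2 and the positive one of Ankrd1 coming without set 1, and the value of 0.33 for Acta2, without set 2, passing the threshold (adjusted p = 0.00154). Htr7 was -0.040 with exact zeros kept, -0.26 in the Cy3 orientation alone and -0.085 with set 2 from its treated-in-Cy3 array. Dcdc2c was -0.030 in the Cy5 orientation alone and -0.0037 with set 2 from its treated-in-Cy3 array. In the Cy5 orientation alone Ankrd1 was 0.24, Pias1 0.053, Elp3 0.12, Eif3e -0.0094 and Eif3c -0.13. In the Cy3 orientation alone 9030624G23Rik was -0.11, Colec11 -0.26, Rnaseh1 0.016 and Ak4 -0.0087. Single orientations also made calls that both together did not, namely Colec11 in Cy5 (0.46, adjusted p = 0.0355), and Elp3 (-0.29, 0.0276) and Eif3c (0.35, 0.0140) in Cy3. A single orientation cannot tell treatment from dye. Each of these genes had the opposite sign in the other orientation (Colec11 -0.26, Elp3 0.12 and Eif3c -0.13). With set 2 from its treated-in-Cy3 array 9030624G23Rik was -0.074, Colec11 -0.018 and Rnaseh1 0.0019. The causes were not tested. The table holds no intensities, so how far signal over background limits any ratio is unknown.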
